A study of Mus musculus with 28 samples.

Results

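The 10 genes described here code for proteins of the desmosome: the cadherins Dsg2, Dsg3, Dsc2 and Dsc3, the plaque proteins Dsp (desmoplakin) and Jup (plakoglobin), the plakophilins Pkp1, Pkp2 and Pkp3, and the membrane protein Perp. They were chosen by name, and all 10 were found by symbol among the 56748 gene identifiers of the count files. Expression was read from total RNA, with ribosomal RNA removed, in 28 libraries from a pair of mouse mammary epithelial lines. HC11, labelled untransformed, can be brought to make milk proteins in culture. The 4T1 line, labelled cancer, came from a mouse mammary tumour and spreads to other organs when grafted. The groups were 10 libraries of HC11 with DOX, 10 of HC11 with DOX + DIP and 8 of 4T1 with DOX, so that every library carried DOX. Neither DOX nor DIP is written out in the labels, although DIP in such cells usually means dexamethasone, insulin and prolactin. For times, clones and separate cultures nothing was found in the labels, so p-values measure the spread between these libraries, which may be technical.

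Desmosomes are spot-like junctions that fasten neighbouring epithelial cells to each other and anchor their keratin filaments. The desmogleins (Dsg) and desmocollins (Dsc) reach across the gap between cells, plakoglobin and the plakophilins bind their tails inside the cell, and desmoplakin ties this plaque to keratin. In the mammary gland desmosomes link luminal and basal cells, and the layers use different sets of these proteins: Dsg2 and Dsc2 and Pkp2 are found in simple epithelia, and Dsg3, Dsc3 and Pkp1 are typical of basal and stratified cells.

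Libraries held between 134117581 and 222065843 counts, at which 3 counts, the limit that a count of 0 allows, are 0.0135 to 0.0224 CPM (CPM being a gene's share of its library's counts on the usual scale, adjusted by TMM, a trimmed mean of ratios between libraries). This limit covers counting error only. With DIP, libraries 8 and 10 stood apart. Their Trp63 was 9.50 and 11.3 CPM against 59.7 to 122 in the other 8, their Krt8 22.0 and 26.5 CPM against 77.3 to 204, and the summed level of 3 basal markers 132 to 186 CPM against 849 to 1653. In 4T1, libraries 1 and 2 held more Trp63 and Krt5, both high in HC11, than the other 6. Trp63 was 2.71 and 3.65 CPM against 0.510 to 0.863, and Krt5 63.8 and 96.3 CPM against 10.6 to 24.7. Values without these libraries are added beside results that changed call or direction or moved by over 1.5 times. Summed over 7 epithelial markers, the level was 620 to 885 CPM in HC11 DOX, 490 to 1077 with DIP and 2109 to 3111 in 4T1. Most of the 4T1 sum was Krt8 (mean 1059 CPM) and Krt18 (918 CPM), while Epcam was 185 CPM in HC11 DOX and 69.8 in 4T1 and Cdh1 328 and 351 CPM. Over 7 fibroblast markers it was 38.2 to 101, 20.9 to 266 and 9.50 to 15.7 CPM, over 5 immune markers 8.47 to 12, 10.1 to 27.4 and 15.0 to 22.7 CPM, and over 4 endothelial markers 3.30 to 5.29, 0.271 to 1.56 and 0.113 to 0.305 CPM. Basal markers summed to 2804 to 7495, 132 to 1653 and 213 to 418 CPM. Of these markers Cd3e was at 0 in all 8 4T1 libraries, and Ptprc, Cdh5, Kdr and Thy1 had means of at most 0.0224 CPM in every group. Thy1 does not stand for its list, nor do Cd3e and Ptprc for theirs. Only 1 of 7 fibroblast markers stayed below 1 CPM in all HC11 DOX libraries, 1 with DIP and 4 in 4T1. With DIP 3 of 6 fibroblast markers tested were called higher and 0 lower, where 24.5% of all genes were called higher and 21.0% lower. Without DIP libraries 8 and 10, 4 were called higher and 0 lower, where 27.0% of genes were called higher and 25.4% lower. In each group 3 of 5 immune markers stayed below 1 CPM in all libraries. Of 4 endothelial markers 3 did so in both HC11 groups, and all 4 in 4T1. With DIP 1 of 3 immune markers tested was called higher and 0 lower, beside the 24.5% and 21.0% of all genes. In 4T1 against HC11 DOX the calls were 2 immune markers higher and 1 lower. Of all genes 34.3% were called higher there and 35.6% lower. The share that other cells had in the results below was not tested.

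The plaque genes Dsp and Jup fell in both comparisons with HC11 DOX, and the sequence before their starts is shown because these members moved together and both are in the RefSeq promoter table (build GRCm38.p6), which matched 2 of the 10 genes. Each sequence is the 250 bases before the annotated start, 5′ to 3′ on the strand of the gene, with GC boxes (GGGCGG on either strand) in capitals. Dsp lies on the plus strand at chr13:38151044-38151293 and Jup on the minus strand at chr11:100397791-100398040.
Dsp: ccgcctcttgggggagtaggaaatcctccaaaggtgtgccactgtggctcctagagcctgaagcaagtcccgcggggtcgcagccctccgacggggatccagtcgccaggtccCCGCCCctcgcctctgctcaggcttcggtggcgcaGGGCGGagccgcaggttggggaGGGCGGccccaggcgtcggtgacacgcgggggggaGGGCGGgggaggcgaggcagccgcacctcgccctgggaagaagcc
Jup: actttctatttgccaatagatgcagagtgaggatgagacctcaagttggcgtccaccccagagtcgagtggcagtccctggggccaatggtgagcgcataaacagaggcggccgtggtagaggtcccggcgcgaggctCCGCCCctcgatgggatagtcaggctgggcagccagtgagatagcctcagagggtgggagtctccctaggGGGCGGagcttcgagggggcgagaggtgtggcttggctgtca
The Dsp window was 72.4% G and C and held 4 GC boxes, which began 137, 102, 80 and 45 bases before the start. The Jup window was 62.0% G and C and held 2, at 112 and 42 bases. A GC box stood in 32.7% of 32851 promoters of the same length, whose median was 52.4% G and C. The E-box CAGGTG, known as a binding site of Snail and ZEB repressors, was in neither window and in 17.2% of all promoters. The letters AACCGG, the core of the site bound by grainyhead factors, were in neither window and in 5.62% of all. Both strands were searched, no matches overlapped, and a match is a description of letters only.

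With DIP, Perp and Pkp2 rose in HC11 cells while Pkp1, Jup, Dsp and Dsg3 fell, and Dsg2, Dsc2 and Pkp3 did not pass the test. In 4T1 against HC11 DOX, 8 members fell, from 1.43-fold for Pkp3 to 75.2-fold for Dsg3, and 1 rose, Pkp2 by 9.16-fold. For DIP against DOX, 2 of 9 tested members were called higher and 4 lower, where 45.5% of all 23829 genes tested were called, 24.5% higher and 21.0% lower. Without DIP libraries 8 and 10, 3 members were called higher and 4 lower, where 52.4% of genes were called, 27.0% higher and 25.4% lower. With all 10 DIP libraries the median log2 change was -0.36 over the 9 members and 0.06 over all genes, and without libraries 8 and 10 it was -0.19 and 0.0046. For 4T1 against HC11 DOX, 1 was called higher and 8 lower, where 69.9% of 23875 genes were called, 34.3% higher and 35.6% lower. The median was -2.09 over the members and -0.01 over all genes. The comparisons share the 10 HC11 DOX libraries, and in these bulk samples fewer cells of a type and less RNA per cell cannot be told apart. Calls are at an adjusted p under 0.05 from edgeR's quasi-likelihood test, adjusted by Benjamini-Hochberg over all genes tested. Dsc3 passed the filter on low counts in none of the comparisons.

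**Figure D1:**
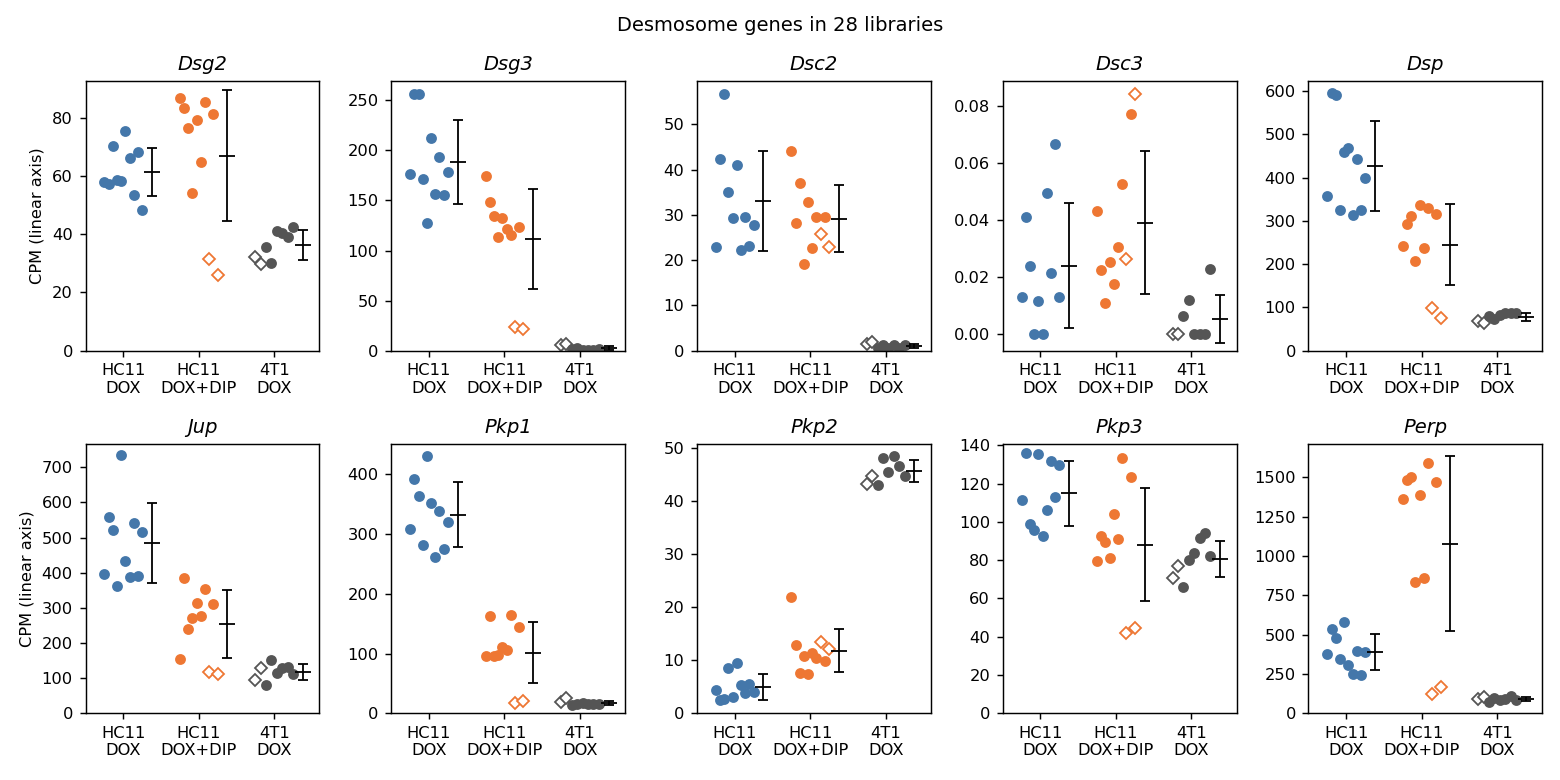
Level of each desmosome gene in CPM on a linear axis in 10 HC11 DOX, 10 HC11 DOX + DIP and 8 4T1 DOX libraries, with 1 point per library and bars for mean and SD. Open diamonds are DIP libraries 8 and 10 and 4T1 libraries 1 and 2. Perp is between 832 and 1593 CPM in 8 DIP libraries, and Pkp2 is highest in 4T1, between 43.1 and 48.5 CPM.

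Dsg2, the desmoglein of simple epithelia, was the cadherin least changed between the lines. In HC11 DOX it was lowest at 48.1, median 58.3 and highest at 75.5 CPM, with a mean of 61.4 ± 8.37 (SD, n = 10). With DIP it ran from 26.0 over 77.8 to 86.9 CPM (66.9 ± 22.5, n = 10), and in 4T1 from 29.7 over 37.4 to 42.4 CPM (36.3 ± 5.08, n = 8). DIP libraries 8 and 10 were the lowest HC11 libraries, the other 8 began at 54.1 CPM, and no 4T1 library reached the HC11 DOX range. The log2 change with DIP was 0.15 ± 0.19 (SE, adjusted p = 0.548). Without DIP libraries 8 and 10 it was 0.33 (adjusted p = 0.00936), a call gained. In 4T1 Dsg2 fell by 0.75 ± 0.10 on the log2 scale, or 1.69-fold (adjusted p = 1.87e-06). An antisense gene, Gm16090, overlaps its exons and held 15464 counts in all against 273366 for Dsg2. With the strand setting not given, reads of the 2 cannot be told apart.

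Dsg3, the desmoglein of basal cells, had the largest fold difference between the lines among the members tested. It was at 128 to 256 CPM in HC11 DOX, median 177 (188 ± 42.4, n = 10), and at 21.6 to 174 CPM with DIP, median 123 (111 ± 49.9, n = 10). The 8 4T1 libraries, in order of number, had 5.43, 6.59, 1.43, 2.27, 1.13, 0.943, 1.12 and 1.32 CPM. Every 4T1 library was below every HC11 library, and libraries 1 and 2 were the highest of the 8. With DIP Dsg3 fell by 0.74 ± 0.29 on the log2 scale (adjusted p = 0.0409), with overlapping groups. This call was lost when HC11 DOX library 2, 3 or 6 or DIP library 6 was left out, with adjusted p from 0.0508 to 0.0655. Without the low DIP libraries 8 and 10 (23.7 and 21.6 CPM) the fall was 0.48 (value -0.48, adjusted p = 0.00367). In 4T1 Dsg3 fell by 6.23 ± 0.43, or 75.2-fold (adjusted p = 1.03e-10), and without 4T1 libraries 1 and 2 by 7.08, or 135-fold.

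Dsc2, the desmocollin of simple epithelia, did not pass the test within HC11 and was low in 4T1. It was 22.2 to 56.8 CPM in HC11 DOX, median 29.4 (33.0 ± 11, n = 10), and 19.3 to 44.1 CPM with DIP, median 28.8 (29.2 ± 7.39, n = 10). In 4T1 it was 0.564 to 1.83 CPM, median 1.21 (1.10 ± 0.454, n = 8). The HC11 groups overlapped almost wholly, DIP libraries 8 and 10 included (25.7 and 23.0 CPM), and all 4T1 libraries lay below them. The log2 change was -0.16 ± 0.18 with DIP (adjusted p = 0.504), and in 4T1 Dsc2 fell by 4.91 ± 0.28, or 30-fold (adjusted p = 5.32e-12).

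Dsc3, the desmocollin of basal cells, was near the limit of detection throughout. It had 41 counts in all in HC11 DOX, in 8 of 10 libraries, 69 with DIP, in 10 of 10, and 7 in 4T1, in 3 of 8. The most in any library was 14 counts, or 0.0846 CPM, in DIP library 10, and no level was read from it. With no filter on low counts it was called lower in 4T1 than in HC11 DOX (log2 -2.03, adjusted p = 0.0491) and not called with DIP (0.68, adjusted p = 0.384). In that setting it was also called lower in 4T1 than in HC11 with DIP (log2 -2.71, adjusted p = 0.00241).

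Dsp, which links the plaque to keratin, fell in both comparisons. In HC11 DOX it was 314 to 597 CPM, median 422 (428 ± 104, n = 10), with DIP 75.7 to 337, median 268 (245 ± 93.8, n = 10), and in 4T1 63.6 to 88.3, median 81.0 (78.8 ± 9.51, n = 8). DIP libraries 8 and 10 (98.9 and 75.7 CPM) lay near the 4T1 range, and the other 8 DIP libraries reached up to the lower HC11 DOX ones. With DIP Dsp fell by 0.78 ± 0.23 on the log2 scale, or 1.72-fold (adjusted p = 0.00815). Without libraries 8 and 10 the log2 change was -0.57 (adjusted p = 0.00203). In 4T1 Dsp fell by 2.44 ± 0.14, or 5.43-fold (adjusted p = 6.71e-12), with no overlap. The unnamed transcript Gm10129 on the other strand overlaps its exons and held 16192 counts against 1265812 for Dsp.

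Jup codes for plakoglobin, a relative of beta-catenin that binds both desmosomal and classical cadherins. It was 362 to 734 CPM in HC11 DOX, median 474 (484 ± 114, n = 10), 112.5 to 385 with DIP, median 275 (254 ± 96.7, n = 10), and 82.0 to 151 in 4T1, median 122 (118 ± 22.1, n = 8). The highest DIP library, number 2, overlapped the lowest HC11 DOX library, and DIP libraries 8 and 10 (117 and 112.5 CPM) lay within the 4T1 range. With DIP Jup fell by 0.91 ± 0.21 on the log2 scale, or 1.87-fold (adjusted p = 0.00145), and without those libraries by 0.73 (adjusted p = 0.000842). In 4T1 it fell by 2.04 ± 0.14, or 4.11-fold (adjusted p = 1.24e-10).

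Pkp1, the plakophilin of stratified and basal epithelium, was the member whose HC11 groups did not overlap. The 10 HC11 DOX libraries ran from 261 over 329 to 430 CPM (332 ± 54.0). With DIP the range was 17.1 to 164 CPM, median 102 (101 ± 50.9, n = 10), with libraries 8 and 10 at 17.1 and 20.4 CPM and the other 8 from 95.6 CPM. In 4T1 it was 13.5 to 24.9 CPM, median 16.2 (17.3 ± 3.48, n = 8). All DIP libraries lay below all HC11 DOX libraries, as was so for 6.76% of genes tested, 11.4% of genes having groups apart in either direction and 4.69% with DIP above. With DIP Pkp1 fell by 1.68 ± 0.31, or 3.21-fold (adjusted p = 0.000131), and without libraries 8 and 10 by 1.42, or 2.68-fold (adjusted p = 4.37e-08). In 4T1 it fell 19.2-fold (log2 -4.26 ± 0.13, adjusted p = 9.44e-16).

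Pkp2, the plakophilin of simple epithelium and heart, ran the other way. It was lowest in HC11 DOX, at 2.52 to 9.51 CPM, median 4.26 (4.96 ± 2.37, n = 10). With DIP it was 7.48 to 22.0, median 11.1 (11.8 ± 4.10, n = 10), and in 4T1 43.1 to 48.5, median 45.1 (45.6 ± 2.05, n = 8). Every 4T1 library was above every HC11 library, the HC11 groups overlapped, and DIP libraries 8 and 10 (13.5 and 12.2 CPM) were among the upper DIP libraries. With DIP Pkp2 rose by 1.27 ± 0.25 on the log2 scale, or 2.42-fold (adjusted p = 0.000225). In 4T1 it rose by 3.20 ± 0.23, or 9.16-fold (adjusted p = 1.68e-10).

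Pkp3, a plakophilin found in most epithelia, changed least among the plakophilins. It was 92.5 to 136 CPM in HC11 DOX, median 112 (115 ± 17.0, n = 10), 42.0 to 133 with DIP, median 90.3 (88.1 ± 29.3, n = 10), and 66.1 to 94.0 in 4T1, median 80.9 (80.6 ± 9.48, n = 8). The 3 groups overlapped, with DIP libraries 8 and 10 (42.0 and 44.4 CPM) below all others. The log2 change with DIP was -0.36 ± 0.17 (adjusted p = 0.0982). It was called lower without DIP library 7 (adjusted p = 0.0329) or 9 (adjusted p = 0.0452), and was -0.19 (adjusted p = 0.165) without libraries 8 and 10. In 4T1 it fell by 0.51 ± 0.09, or 1.43-fold (adjusted p = 5.37e-05).

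Perp, a p53 and p63 target gene whose protein sits in the desmosomal membrane, rose with DIP by more than Pkp2 in edgeR's fit, though not under limma voom (log2 1.16 against 1.34). HC11 DOX libraries ran from 247 over 383 to 580 CPM (391 ± 112, n = 10). DIP libraries 1 to 7 and 9 ran from 832 to 1593 CPM (1311 ± 295, n = 8), while libraries 8 and 10 had 123 and 169 CPM. The 4T1 libraries ran from 73.1 over 92.6 to 109 CPM (92.4 ± 11.2, n = 8). So 8 DIP libraries were above every HC11 DOX library, and 2 were below every one. Over all 10 DIP libraries, at 1078 ± 556 CPM, Perp rose by 1.49 ± 0.36 on the log2 scale, or 2.81-fold (adjusted p = 0.00170). Without libraries 8 and 10 the rise was 1.77, or 3.40-fold (adjusted p = 6.14e-08). In 4T1 Perp fell by 2.09 ± 0.16, or 4.25-fold (adjusted p = 3.58e-10). Trp63, which codes for p63, was 83.4 ± 21.8 CPM in HC11 DOX and 76.8 ± 41.0 with DIP (log2 change -0.10 ± 0.35, adjusted p = 0.849), and 1.27 ± 1.21 in 4T1. Without DIP libraries 8 and 10 it was 93.4 CPM with DIP (log2 change 0.18, adjusted p = 0.377).

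**Figure D2:**
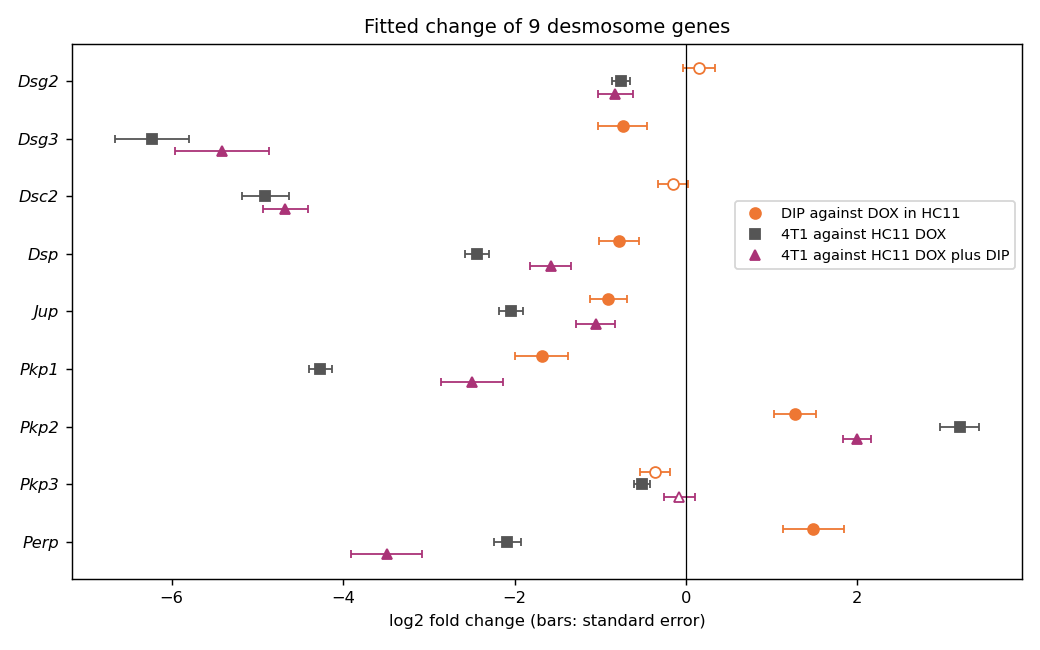
Fitted log2 fold change of 9 desmosome genes with standard errors, for DIP against DOX in HC11 (circles), 4T1 against HC11 DOX (squares) and 4T1 against HC11 DOX plus DIP (triangles), with open symbols where the adjusted p was 0.05 or more. Pkp2 is right of 0 in all 3 comparisons, from 1.27 to 3.20, and Perp is right of 0 only for DIP, at 1.49.

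In 4T1 against HC11 DOX, 7 of the 9 tested members lay wholly below, as did 17.8% of all genes tested, and Pkp2 wholly above, as did 18.9%. The groups of 36.8% of genes were apart in either direction, and Pkp3 was the member whose groups overlapped. Without 4T1 libraries 1 and 2, 1 member was called higher and 8 lower, where 66.4% of genes were called, 32.4% higher and 34.0% lower. When 4T1 was set against HC11 with DIP, 1 of 9 members was called higher and 7 lower, where 73.8% of 24132 genes were called, 35.9% higher and 37.9% lower. Pkp2 rose 4.00-fold (log2 2.0 ± 0.16, adjusted p = 1.78e-09). The falls ran from 1.77-fold for Dsg2 (log2 -0.82 ± 0.21, adjusted p = 0.00141) to 42.7-fold for Dsg3 (-5.42 ± 0.55, adjusted p = 3.98e-08), the latter 80.3-fold without 4T1 libraries 1 and 2. Perp fell 11.2-fold, more than the 4.25-fold against HC11 DOX, Dsc2 25.5-fold, Pkp1 5.66-fold, Dsp 2.99-fold and Jup 2.07-fold. Folds against HC11 DOX and against HC11 with DIP differ because of the change with DIP, but each came from its own fit. They therefore do not subtract exactly to the fitted change with DIP. Pkp3 differed by -0.08 ± 0.18 (adjusted p = 0.723), and by -0.32 (adjusted p = 0.0165, called lower) without DIP libraries 8 and 10. In that fit 1 member was called higher and 8 lower, where 79.6% of 23698 genes were called, 39.3% higher and 40.3% lower. Without 4T1 libraries 1 and 2, 1 was called higher and 7 lower, where 70.4% of all genes were called, 32.1% higher and 38.3% lower. All libraries of 4T1 lay above all of HC11 with DIP for Pkp2, as for 20.9% of genes, and below for Dsc2, Dsg3 and Perp, as for 18.7%, the groups being apart for 39.6% in either direction.

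By mean CPM, Dsp, Dsc2, Dsg3, Pkp1, Pkp3 and Jup were highest in HC11 DOX, then DIP, then 4T1. Dsg2 and Perp were highest with DIP, then HC11 DOX, then 4T1, and Pkp2 was highest in 4T1, then DIP, then HC11 DOX. Neighbours in this order that did not pass the test were HC11 DOX and DIP for Dsc2 and Dsg2, and both pairs for Pkp3. Perp, Pkp2, Dsp, Dsg3, Pkp1 and Jup differed between every pair of neighbours. For DIP against DOX, 5 of the 6 called members had overlapping libraries. The groups were apart in either direction for 11.4% of all genes tested, called or not, so this share is no measure for called genes alone.

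Per length, the members differed widely from each other. In mean CPM per kb of exon, HC11 DOX had Perp at 200, Jup at 75.2, Pkp1 at 66.0, Dsp at 44.3, Pkp3 at 31.8, Dsg3 at 27.0, Dsg2 at 7.42, Dsc2 at 6.25 and Pkp2 at 0.925. Perp was the highest in all 3 groups, at 552 CPM per kb with DIP and 47.3 in 4T1. Second came Jup in both HC11 groups (39.4 with DIP) and Pkp3 in 4T1 (22.3 CPM per kb). Order between genes depends on the length used: the joined exons of Jup cover 6436 bases and its longest transcript 3205.

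The make-up of the plakophilins differed between the groups. Of the summed CPM per kb of Pkp1, Pkp2 and Pkp3, Pkp1 had 66.7% ± 3.46 (SD, n = 10) in HC11 DOX, 39.9% ± 10.7 with DIP and 10.1% ± 2.11 in 4T1. Pkp2 had 0.983% ± 0.538, 6.0% ± 4.31 and 24.9% ± 1.49. Pkp3 had 32.3% ± 3.50, 54.1% ± 7.26 and 64.9% ± 2.59. No library of any group had a Pkp1 or Pkp2 share within the range of another group, while DIP and 4T1 overlapped for Pkp3. DIP libraries 8 and 10 had 19.4% to 21.8% Pkp1 and 12.2% to 14.4% Pkp2, between the other 8 DIP libraries (Pkp1 from 42.1% up, Pkp2 up to 9.08%) and 4T1. With the longest transcript as length, an alternative chosen after seeing the data, Pkp2 had 1.58%, 8.90% and 33.3%. The summed level was 98.8 ± 13.4 CPM per kb in HC11 DOX, 46.8 ± 17.7 with DIP and 34.2 ± 2.90 in 4T1.

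The make-up of the desmogleins also differed between the groups. Dsg2 made up 22.0% ± 4.06 of Dsg2 plus Dsg3 per kb in HC11 DOX (15.9% to 27.8%), 36.5% ± 8.53 with DIP (28.7% to 53.0%) and 92.1% ± 7.01 in 4T1 (79.2% to 97.3%). The 3 ranges did not overlap, and DIP libraries 8 and 10 held the top of the DIP range, at 50.4% and 53.0%. Their sum was 34.4 ± 6.35, 24.0 ± 9.72 and 4.76 ± 0.422 CPM per kb, so the high Dsg2 share in 4T1 was a share of a low total. These shares are descriptions, with no test.

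**Figure D3:**
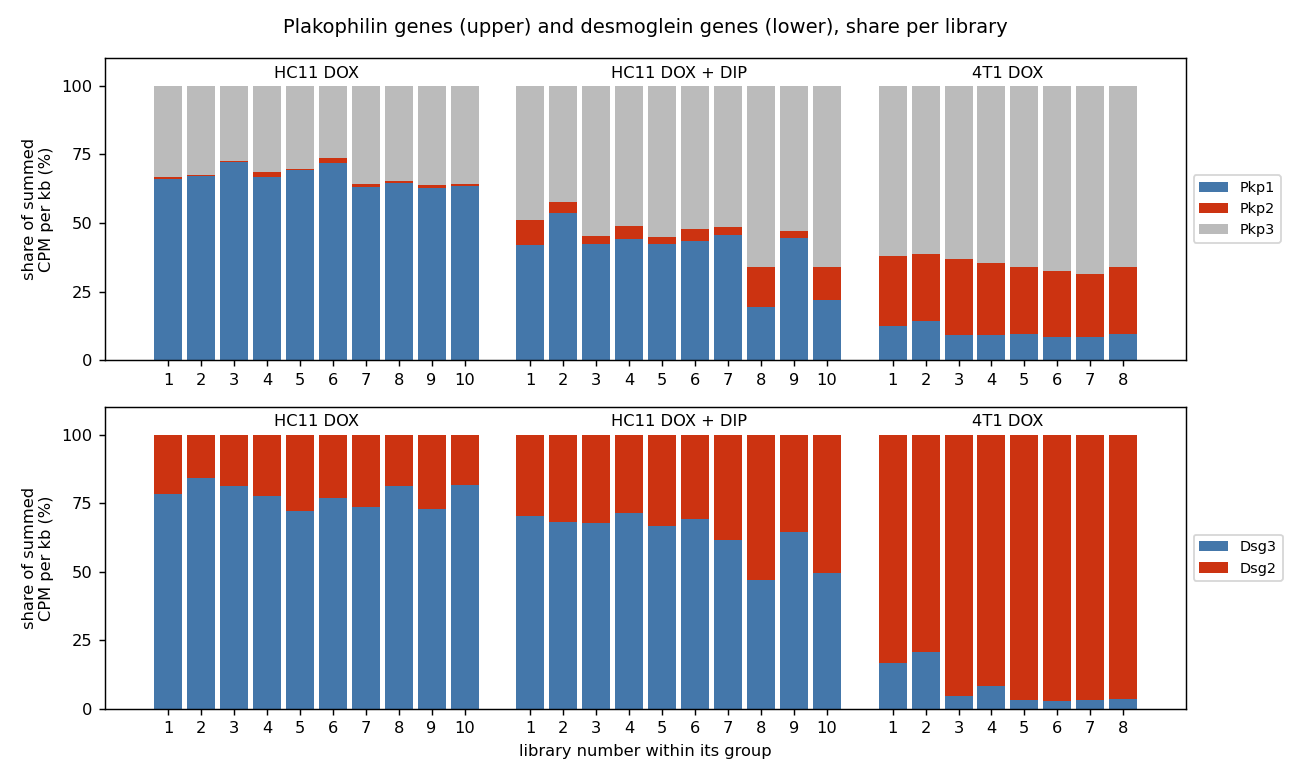
Share of the summed CPM per kb of exon, in percent, of Pkp1, Pkp2 and Pkp3 (upper) and of Dsg3 and Dsg2 (lower) in each of 28 libraries, by library number within its group. Pkp1 falls from 66.7% on average in HC11 DOX to 10.1% in 4T1, and DIP libraries 8 and 10 differ from their group.

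The low 4T1 levels were set beside 228 other genes typical of HC11, chosen to be above 10 CPM in HC11 DOX and under 2% of that level in 4T1 libraries 3, 5, 6, 7 and 8. Their median level in 4T1 libraries 1 to 8 was 2.99%, 4.37%, 0.722%, 1.32%, 0.685%, 0.511%, 0.831% and 0.768% of HC11 DOX. Libraries 1, 2 and 4, which were not used to choose the genes, had the highest values. This follows in part from the choice, which caps only the other 5 libraries. In the other 5 libraries the choice itself holds the median under 2%, so it measures no background there, and a gene above 2% must exceed it. Dsg3 stood at 2.88%, 3.50%, 0.761%, 1.20%, 0.599%, 0.501%, 0.593% and 0.70%, close to the median of these genes in each library. Dsg3 itself meets the rule by which these genes were chosen, and was left out only as a member. Its closeness in libraries 3, 5, 6, 7 and 8 therefore follows in part from that rule. Dsc2 stood at 1.71% to 5.55%, Pkp1 at 4.07% to 7.51% and Dsp at 14.9% to 20.6%, with Dsc2 and Pkp1 highest in libraries 1 and 2 and Dsp lowest there. The part of this signal in the level of Dsg3 in 4T1 was not tested.

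**Figure D4:**
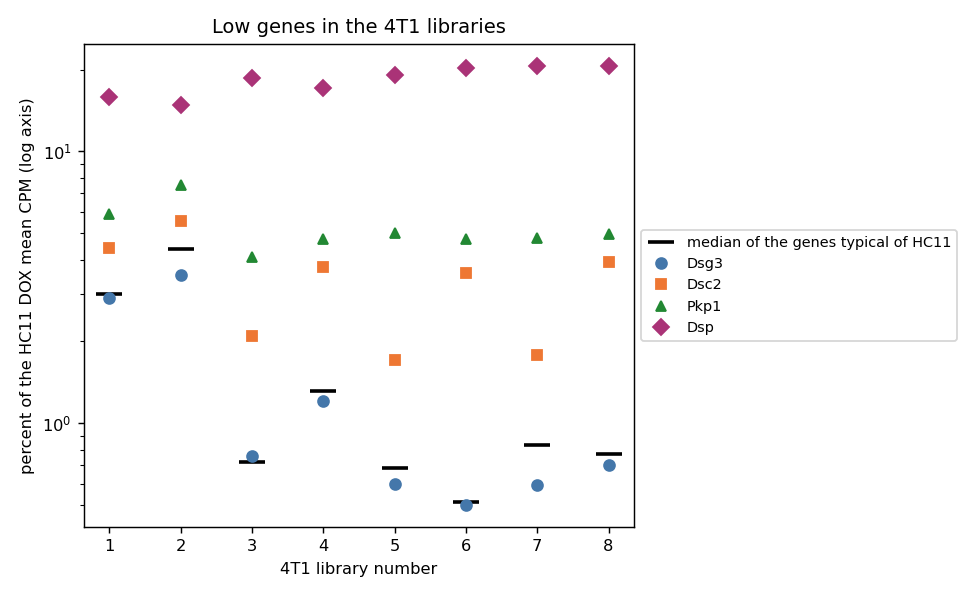
Level in each 4T1 library as percent of the HC11 DOX mean, on a log axis, for Dsg3, Dsc2, Pkp1 and Dsp, with black bars for the median of 228 genes typical of HC11. Dsg3 follows the bars, from 0.501% in library 6 to 3.50% in library 2, and Dsp stays between 14.9% and 20.6%.

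Other genes of the junction were read from lists, whose counts stand against 45.5% of all genes called for DIP against DOX, 69.9% for 4T1 against HC11 DOX and 73.8% for 4T1 against HC11 with DIP. Without DIP libraries 8 and 10 the share was 52.4% for DIP against DOX and 79.6% for 4T1 against HC11 with DIP. Without 4T1 libraries 1 and 2 it was 66.4% for 4T1 against HC11 DOX and 70.4% against HC11 with DIP. With DIP the share called was 80% of the other desmosomal genes, 60% of plakins, 90.9% of keratins, 66.7% of adherens genes, 28.6% of hemidesmosome genes and 42.9% of regulators, the last near the share of all genes. In 4T1 against HC11 DOX it was 78.6% to 100% in these lists, and against HC11 with DIP 57.1% to 100%. Of the remaining desmosomal genes, 4 of 5 were lower with DIP, 0 higher and 1 not called, with a median log2 change of -1.85 (all genes 0.06). The 4 were Pkp4, a relative of the plakophilins, from 109 ± 13.2 to 62.7 ± 21.2 CPM (log2 -0.77 ± 0.18, adjusted p = 0.00133), and the desmoglein 1 copies Dsg1a, Dsg1b and Dsg1c. The copies were low, at means of 1.15 to 6.19 CPM in HC11 DOX and 0.314 to 1.54 with DIP, and are near-identical, so their split is uncertain. Without DIP libraries 8 and 10 the list median was -1.08 and 4 of 6 were lower. In 4T1 all 5 tested were lower than in HC11 DOX, Pkp4 at 81.9 ± 4.79 CPM (log2 -0.41 ± 0.08, adjusted p = 7.10e-05). Dsg1a, Dsg1b, Dsg1c and Dsc1 had means of 0.00158 to 0.0283 CPM there, near or below the level of 3 counts, so their fitted folds are no bound.

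Plakins are the long proteins that link junctions to filaments. With DIP, 1 of 5 was higher, 2 lower and 2 not called, with a median of -0.36 (-0.21 without libraries 8 and 10). Ppl (periplakin) rose from 38.1 ± 14.8 to 84.1 ± 42.6 CPM (log2 1.17 ± 0.32, adjusted p = 0.00435) while its partner Evpl (envoplakin) fell from 86.7 ± 32.3 to 37.2 ± 11.9 CPM (-1.20 ± 0.22, adjusted p = 0.000137). Plec (plectin) fell by 0.70 ± 0.20 (adjusted p = 0.00675). In 4T1, 1 of 5 was higher and 3 lower than in HC11 DOX, with a median of -0.76. Evpl fell 9.20-fold to 9.47 ± 1.72 CPM (adjusted p = 5.38e-11), Dst (dystonin) 2.48-fold and Ppl 1.69-fold, and Plec rose 1.56-fold (adjusted p = 0.000136).

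The keratins, the filaments that desmosomes hold, moved in both directions. With DIP, 4 of 11 were higher, 6 lower and 1 not called, with a median of -1.55. Krt5, the main basal keratin, fell 6.39-fold from 3070 ± 1222 to 472 ± 256 CPM (adjusted p = 7.81e-06), Krt16 fell 4.63-fold (adjusted p = 1.62e-05), and Krt15 rose 4.46-fold (adjusted p = 0.00709). The Krt15 call was lost with limma voom (adjusted p = 0.394). In 4T1, 4 of 11 were higher and 7 lower than in HC11 DOX. Krt19 rose by 7.59 ± 0.45 on the log2 scale to 132 ± 45.5 CPM, Krt6a fell by 6.68 ± 0.57 to 2.11 ± 2.35 CPM and Krt5 by 6.65 ± 0.55 to 31.0 ± 31.8 CPM, a level that was 63.8 and 96.3 CPM in libraries 1 and 2 and 10.6 to 24.7 CPM in the other 6. Without those 2 libraries the log2 change was -7.78 for Krt6a and -7.69 for Krt5. The keratins Krt7, Krt8, Krt18 and Krt19 of simple epithelia were the 4 that rose, and the 7 that fell were Krt5, Krt14, Krt15, Krt6a, Krt6b, Krt16 and Krt17.

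Adherens junctions are the actin-linked junctions beside desmosomes. With DIP, 2 of 12 genes were higher, 6 lower and 4 not called, with a median of -0.46, and without libraries 8 and 10, 1 was higher and 6 lower (median -0.29). Plekha7 fell from 67.1 ± 9.84 to 19.3 ± 5.46 CPM (log2 -1.77 ± 0.16, adjusted p = 1.15e-08), Cdh3 (P-cadherin) fell by 0.74 ± 0.21 (adjusted p = 0.00609), and Nectin2 rose by 0.68 ± 0.23 (adjusted p = 0.0169). The call for Nectin2 was lost without DIP libraries 8 and 10 (log2 0.29, adjusted p = 0.0970). In 4T1, 4 were higher and 7 lower than in HC11 DOX, with a median of -0.41. Without 4T1 libraries 1 and 2, 4 were higher and 6 lower (median -0.34). Cdh2 (N-cadherin) fell 83.7-fold, Nectin4 44.8-fold and Cdh3 29.7-fold, to 1.04 ± 1.12, 1.08 ± 0.789 and 1.61 ± 1.09 CPM. Without 4T1 libraries 1 and 2 the folds were 180.0, 66.8 and 44.2.

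Hemidesmosomes fasten cells to the basement membrane by way of the same keratins. With DIP, 0 of 7 genes were higher, 2 lower and 5 not called, with a median of -0.29, and without DIP libraries 8 and 10, 2 were higher and 1 lower (median -0.01). Col17a1 fell from 590 ± 201 to 229 ± 124 CPM (log2 -1.34 ± 0.35, adjusted p = 0.00380). In 4T1, 1 of 7 was higher and 5 lower than in HC11 DOX, with a median of -0.94. Col17a1 fell 63.7-fold to 9.37 ± 9.01 CPM (124-fold without 4T1 libraries 1 and 2), Itgb4 4.51-fold and Lamb3 3.68-fold.

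Factors and enzymes known to act on desmosomal genes or proteins were read last. With DIP, 1 of 14 was higher, 5 lower and 8 not called, with a median of -0.18. Without DIP libraries 8 and 10, 1 was higher and 6 lower (median -0.23). Grhl1, a grainyhead factor known to bind desmosomal cadherin genes, rose from 21.5 ± 5.86 to 51.6 ± 21.3 CPM (log2 1.29 ± 0.22, adjusted p = 5.84e-05). Snai1, a repressor of epithelial genes, fell from 14 ± 6.48 to 3.67 ± 1.21 CPM (-1.91 ± 0.26, adjusted p = 4.02e-06), and Prkca, a kinase that loosens desmosomes, from 36.5 ± 7.13 to 12.4 ± 4.36 CPM (-1.53 ± 0.21, adjusted p = 4.17e-06). In 4T1, 4 of 14 were higher and 7 lower than in HC11 DOX, with a median of -0.74. Snai2 fell 70.5-fold to 0.630 ± 0.623 CPM, Trp63 66.6-fold to 1.27 ± 1.21 CPM and Grhl1 13.8-fold to 1.57 ± 0.398 CPM. Without 4T1 libraries 1 and 2 the log2 change was -7.07 for Snai2 and -7.02 for Trp63, against -6.14 and -6.06 with them. Trp63 in 4T1 was 2.71 and 3.65 CPM in libraries 1 and 2 and 0.510 to 0.863 CPM in the other 6.

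**Figure D5:**
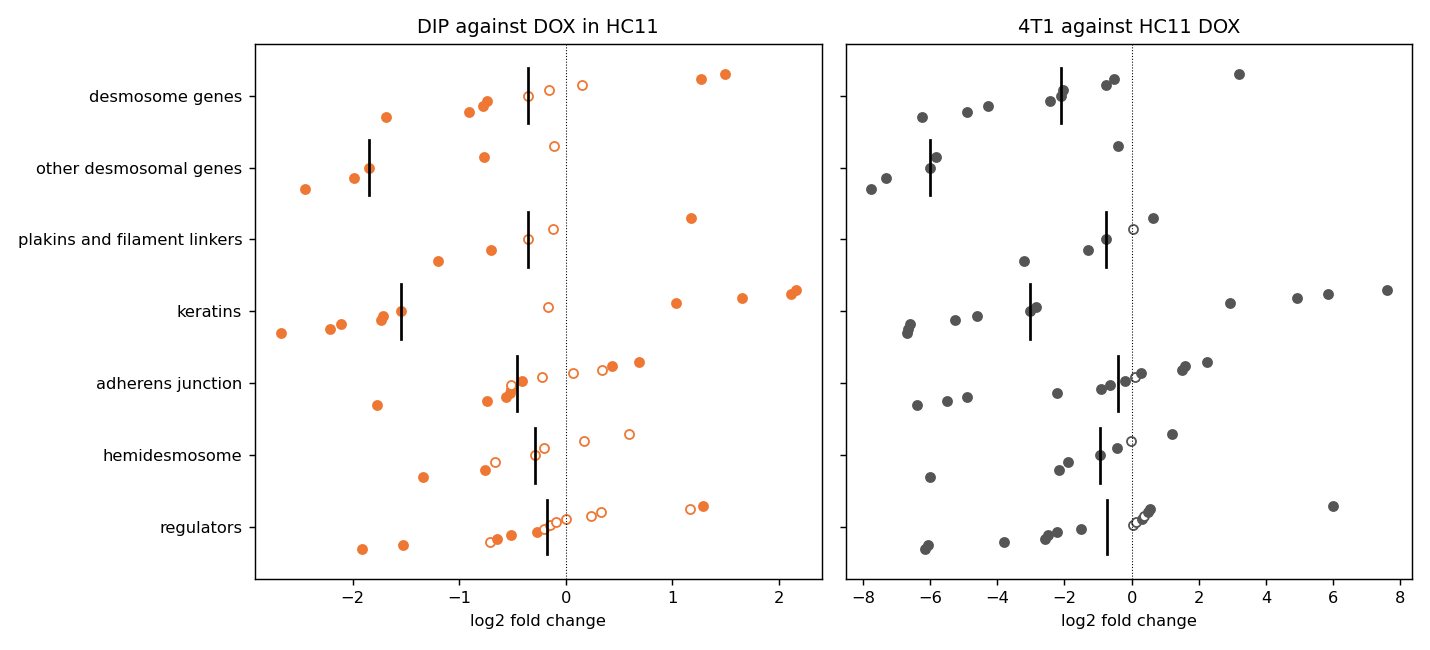
Log2 fold change of each gene of 7 lists for DIP against DOX in HC11 (left) and 4T1 against HC11 DOX (right), filled where the adjusted p was under 0.05, with black bars for the median of each list. The desmosome genes have medians of -0.36 and -2.09, and keratins lie on both sides of 0 in both comparisons.

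Against HC11 with DIP, the 4T1 libraries gave 1 higher and 3 lower of 4 other desmosomal genes tested, 1 and 3 of 5 plakins, 4 and 6 of 11 keratins, 5 and 4 of 12 adherens genes, 1 and 3 of 7 hemidesmosome genes and 6 and 7 of 14 regulators. Of all genes tested 73.8% were called, 35.9% higher and 37.9% lower. The plakins, at 80% called, and the adherens genes, at 75%, were near that share. Without DIP libraries 8 and 10 the counts were 0 and 3 of 4 other desmosomal genes, 4 and 7 keratins, 5 and 5 adherens genes and 1 and 5 hemidesmosome genes, and without 4T1 libraries 1 and 2, 0 and 5 of 6 other desmosomal genes. In these 2 settings 79.6% and 70.4% of all genes were called. Pkp4 was the desmosomal gene called higher (log2 0.44 ± 0.19, adjusted p = 0.0398). The call was lost when any 1 of 10 libraries was left out (DIP libraries 1, 3, 4, 5, 6 and 10 and 4T1 libraries 1, 3, 4 and 8, adjusted p up to 0.0988), and under DESeq2 (log2 0.33, adjusted p = 0.121).

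The genes whose pattern over the 28 libraries was nearest to each member were found by the root mean square difference of log2 CPM, each gene centred on its own mean, among 10055 genes. They are named as a description, and nearness includes what libraries share, such as cell line and depth. For Dsp these were Zmynd8 (0.26) and Ank3 (0.26), for Jup Bcl9l (0.26) and Notch1 (0.29), and for Dsg2 Ssh2 (0.18) and Nedd4 (0.22). For Dsg3 they were Atp2b4 (0.36) and Trim29 (0.42), and for Dsc2 Ptpn13 (0.37) and Kif5c (0.46). The spread of the member itself was 2.90 for Dsg3 and 2.24 for Dsc2 (SD of log2 CPM), so these distances were small beside it. Pkp3 was nearest to Cc2d1b (0.16) and Actn4 (0.16), but its own SD was 0.42. Pkp1 was nearest to Dlc1 (0.47) and Nrtn (0.48), Perp to Evi5l (0.41) and Zhx3 (0.44), and Pkp2 to H2-K1 (0.37) and H2-K2 (0.39), a pair of related genes whose reads may be shared.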

How the data were processed

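Per the labels, RNA was isolated by TRIzol, ribosomal RNA was removed and NEBNext Ultra II libraries were made. The files deposited by the authors hold unnormalised read counts for each gene, from fastp 0.23.2 and featureCounts 2.0.1 on build GRCm39, per the submitters' processing notes. The aligner, the annotation release and the strandedness of counting were not given in the sources used here. Library numbers follow accession order and only name a library. Within groups the counts of any 2 libraries differed by more than sampling noise (chi-square over degrees of freedom at least 17.7, for 4T1 libraries 5 and 6). Some pairs were far nearer than others. With DIP the ratio was 33.8 for libraries 7 and 9 and 42.9 for 4 and 6, against 2362 for 2 and 10. In HC11 DOX it was 51.1 for 7 and 9 and 51.6 for 8 and 10, against 763 for 5 and 8. Whether near libraries share a culture was not tested. All fits treat libraries as independent, and leaving out 1 library keeps its near partner.

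Symbols and exon lengths were joined by identifier, the lengths from GENCODE vM21. The overlaps of Dsg2 and Dsp with other genes were read from its positions. Those are on build GRCm38, while the counts were made on GRCm39. Of 92 listed names, 91 matched by symbol and 1, Eppk1, did not. Each pair of groups was fitted with edgeR 4.0.16 (filterByExpr, TMM, robust glmQLFit, glmQLFTest) under R 4.3.3, with Benjamini-Hochberg adjustment over all genes tested and calls at 0.05. The standard error is the log2 change divided by the square root of F. CPM used TMM over 28 libraries, and log2 CPM a prior count of 2. DESeq2 1.42.0, limma voom 3.58.1, other scalings, no filter, a joint fit and left-out libraries were alternatives.

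The members, the lists and the tests were chosen with earlier results of these data known. Named were all 10 members, in each list and comparison up to 3 called genes of largest change whose log2 CPM averaged 2 or more, and the 2 genes nearest to each member. A gene that this rule names is not reported here. Keratins of the split list, Dsg1 copies and Dsc1 were named besides. In counts simulated from these libraries with 200 genes changed, edgeR recovered, of genes changed 1.5-fold, 2-fold and 4-fold, 13.4%, 47.8% and 86.4% for DIP against DOX (23546 genes, 2 false calls). For 4T1 against HC11 DOX it recovered 41.8%, 71.6% and 87.9% (23617 genes, 3 false calls), and for 4T1 against HC11 with DIP 13.4%, 46.3% and 90.9% (23864 genes, 2 false calls). The data differ from this setting, since 45.5% to 73.8% of genes were called and libraries may share cultures. Simulated libraries were drawn independently, so neither the recovery nor the false calls need hold for the data.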

Additional observations from a re-analysis of the deposited data

Results flagged for a closer look

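Among 30 groups of libraries, 3 for each of 10 members, 2 held a library far from the others by Dixon's ratio, where chance gives about 1 in 20 groups. Pkp2 was highest in DIP library 1, at 22.0 CPM, with the nearest library at 13.5 CPM. The gap was 0.585 of the range of the 10 libraries (critical value 0.466). Jup was highest in HC11 DOX library 5, at 734 CPM, with the nearest at 558 CPM, a gap of 0.475 of the range. The ratio takes the gap to the nearest library, so 2 libraries that lie apart together hide each other. Perp in DIP libraries 8 and 10, at 123 and 169 CPM against 832 to 1593 in the other 8, was therefore not flagged.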

How the results depend on the processing

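Under DESeq2, limma voom, other size factors, no filter on low counts, a joint fit of 3 groups and the left-out pairs of libraries, the count of members called stayed between 5 and 7 for DIP against DOX (6 as reported), 9 and 10 for 4T1 against HC11 DOX (9) and 8 and 9 for 4T1 against HC11 with DIP (8), and leaving out 1 library gave 5 to 7, 9 and 8. The 10837, 16688 and 17814 genes called over all genes ran from 10244 to 11438, 16229 to 16916 and 17132 to 18304 with 1 library left out. Of 504 member values with 1 library left out 498 kept direction and call, 4 lost the call and 2 gained it, and of 198 values under the other alternatives 193 kept both, 2 lost it and 3 gained it. In none of these did a member change direction. Dsg3 with DIP lost its call with no filter (adjusted p = 0.0564) and in the joint fit (adjusted p = 0.0752), and Pkp3 gained one in the joint fit (adjusted p = 0.0390). Scaling by library size alone moved the median log2 change of all genes to -0.24 for 4T1 against HC11 DOX and to -0.34 against HC11 with DIP, and the share of higher among called genes from 49.0% to 35.9% and from 48.6% to 37.5%. The cause was not tested. No paired analysis was possible because the labels carry no replicate numbers. Depth limits Dsc3, at no more than 14 counts a library.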
